A study of Oryzias latipes with 60 samples.

Results

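The 50 medaka genes described here are those whose level was higher under cisplatin than under saline in both transgenic and wild-type fish. For each gene with a mean CPM (library-scaled read count) of at least 1, the group median of log2 CPM in saline fish was subtracted from that in cisplatin fish, within each genotype. The smaller of the 2 differences was the gene's score, and the 50 highest scores among 17144 such genes (20459 genes in the table) gave the members. The members were thus chosen by the levels of the cisplatin and saline fish, and every difference between these 2 treatments is a description without a test. Tests are given only for DMSO, trametinib and untreated fish, whose levels entered no score. They did enter the mean CPM, which was taken over all 60 libraries. Over the saline and cisplatin fish alone, 3 members (ENSORLG00000002652, ENSORLG00000002657 and ENSORLG00000019309) would have had a mean CPM under 1, and the first 2 would also have had one without the transgenic trametinib fish. High levels of these members outside the cisplatin and saline groups were thus favoured by the choice. Among transgenic trametinib fish, fish 67 was far above the others for the first 2. It had 40.8 and 23.1 CPM, against at most 3.80 and 4.76 CPM in the other fish of that group. ENSORLG00000002657 would also have had a mean CPM under 1 without the wild-type cisplatin fish, and ENSORLG00000021053 without the transgenic cisplatin fish.

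Medaka (Oryzias latipes) is a small freshwater fish. Each library was poly-A RNA of a whole juvenile, 3 to 4 weeks old and about 10 mm long, counted here as 1 fish. Fish carrying the xmrk transgene numbered 10 under cisplatin (70 µM), 5 in saline, 10 under trametinib (20 nM), 5 in DMSO and 5 untreated, and wild-type fish numbered 5 in each of these conditions. Drug and vehicle fish spent 5 days in a petri dish, whereas untreated fish remained in ordinary housing. Which promoter drives the transgene is not given in the sources used here, and the sources do not say how fish were divided among dishes, so dish and handling cannot be told apart from the group. In whole-fish RNA, fewer cells of a type and less RNA per cell cannot be told apart.

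Cisplatin forms crosslinks between bases of DNA, which block replication and transcription. Cells answer such lesions with checkpoint signalling, p53-dependent transcription, repair and, where damage persists, cell death, and dividing tissues of a growing animal are the most exposed. Trametinib inhibits the kinase MEK, which relays signals from receptor tyrosine kinases such as the xmrk product to ERK. The table names genes by Ensembl identifier only, and 0 of the identifiers matched a symbol in the reference table used here. Members are therefore given by identifier, nothing is said of what they encode, and whether p53 targets or repair genes are among them was not tested.

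Total counts per library lay between 34788594 and 67018564, with a median of 51038009. In 6 libraries the TMM scaling factor, which corrects for library composition, was under 0.8. By treatment, these libraries came from cisplatin fish 21 (transgenic, factor 0.292), 31 (transgenic, 0.606) and 40 (wild type, 0.679), saline fish 17 (transgenic, 0.234), trametinib fish 63 (transgenic, 0.775) and DMSO fish 47 (wild type, 0.788). Fish 17, 21, 31 and 40 entered the choice of the members. Without these libraries the 50 highest scores held 6 of the members. All 50 members still had a score above 0, 43 of them at or above the original lowest score of 0.767, and their median score was 1.06 without the libraries and 1.03 with all of them. These scores use the medians that chose the members, over mostly the same fish, so nothing is read from them. In rank, other genes overtook most members. Of the 50 genes that led without those libraries, 45 had a correlation over 0.5 with ENSORLG00000007271, a gene that varied widely between fish of the same group, against 3 of the original members and 2.9% of all genes, over all 60 fish. In wild-type fish the TMM factors of the 2 treatments did not overlap. They ran from 0.679 to 0.948 (median 0.914) under cisplatin and from 0.993 to 1.12 (median 1.11) in saline. Lower factors raise the scaled CPM, and their part in the wild-type differences was not tested.

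The members stood 1.23 log2 units higher in cisplatin than in saline fish in the median over the transgenic group (range over members 0.767 to 4.91), and 1.16 units higher in wild-type fish (0.769 to 6.30). ENSORLG00000021053 topped the transgenic range and ENSORLG00000002657 the wild-type range. High levels in the cisplatin fish of that genotype were a condition of the place of each in the list. The medians over all 17144 genes were 0.0176 in transgenic and 0.0422 in wild-type fish. Of the 50 members, 26 were higher by at least 1 log2 unit, a doubling, in both genotypes (0.152% of all genes). This is the same as a score of at least 1, so they are all such genes and the count restates the choice. Their mean level over all 60 libraries had a median of 9.96 CPM, against 15.9 CPM for all genes, and ran from 1.00 CPM for ENSORLG00000002657 to 893.6 CPM for ENSORLG00000001469. Just inside the threshold lay ENSORLG00000015882 (score 0.769) and ENSORLG00000013074 (0.767), and just outside it ENSORLG00000019560 (0.764) and ENSORLG00000013785 (0.763), so the border separates genes of nearly equal score.

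**Figure D1:**
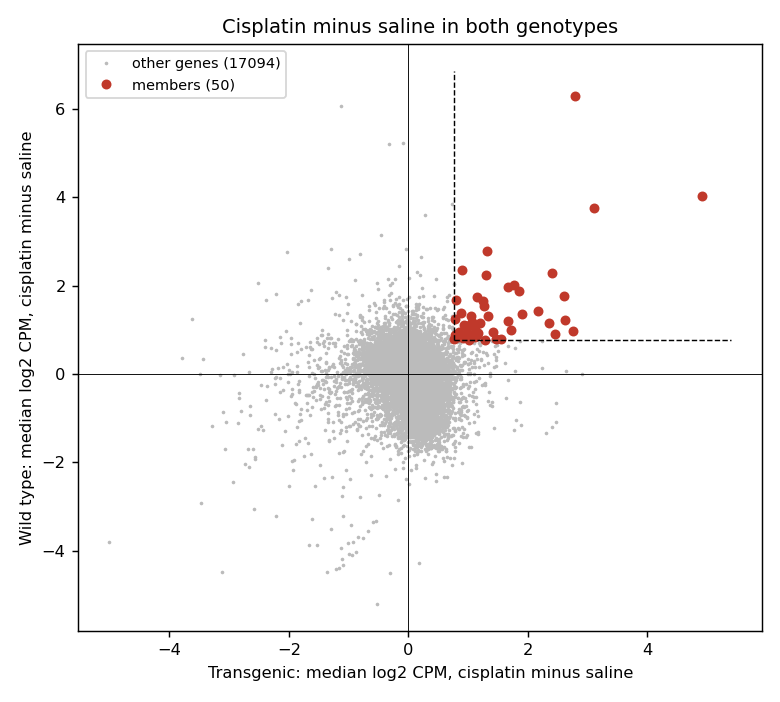
Each point is 1 of 17144 genes, with the cisplatin minus saline difference of median log2 CPM in transgenic fish on the x axis and in wild-type fish on the y axis. The 50 members, in red, lie beyond the dashed lines at the lowest member score of 0.767 in both directions.

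ENSORLG00000021053 had the highest score. Its level was 0.439 CPM at the lowest, 2.13 at the median and 40.9 at the highest in the 10 transgenic cisplatin fish, against 0, 0.0342, 0.0517, 0 and 0.234 CPM in the 5 transgenic saline fish. In wild-type fish it stood at 3.71, 0.957, 3.12, 0.445 and 2.27 CPM under cisplatin, against 0.0835, 0.102, 0.104, 0.443 and 0.102 CPM in saline. The groups did not overlap in either genotype, although wild-type cisplatin fish 41 (0.445 CPM) and saline fish 36 (0.443 CPM) were almost equal. The highest transgenic value was that of fish 21, whose TMM factor was low, and the next was 3.89 CPM. In the groups given neither cisplatin nor saline the gene stayed at or below 0.762 CPM, the value of wild-type DMSO fish 47. This value lay above cisplatin fish 23 (0.439 CPM), 28 (0.672 CPM) and 41 (0.445 CPM). Without the transgenic cisplatin fish its mean level would have been 0.340 CPM, under the minimum. High levels in that group were thus a condition of its place in the list, and fish 21 stood far above the others. The mean of the group was 5.94 CPM, against a median of 2.13 CPM. When 1 saline or cisplatin fish was left out, the gene stayed in 24 of 25 lists.

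ENSORLG00000002652, second by score, rested on few reads. It had 0 CPM at the lowest, 0.287 at the median and 1.55 at the highest in transgenic cisplatin fish, against 0, 0.0684, 0.0861, 0 and 0 CPM in transgenic saline fish. In wild-type fish the values were 0.818, 0.744, 1.43, 0.488 and 0.825 CPM under cisplatin, against 0.0278, 0.0256, 0.0864, 0 and 0.0170 CPM in saline. The transgenic groups overlapped, since fish 21 and 31 had no read under cisplatin, while the wild-type groups were apart. Transgenic trametinib fish had a median of 1.25 CPM, and without them its mean level would have been 0.351 CPM. It is thus in the list only through that group, where fish 67 had 40.8 CPM and the next fish 3.80 CPM. The group mean of 5.32 CPM rested mostly on fish 67. In saline fish the median count was under 3 reads for ENSORLG00000021053, ENSORLG00000002652 and ENSORLG00000002657 among transgenic fish, and for ENSORLG00000002652, ENSORLG00000002657 and ENSORLG00000014726 among wild-type fish. For these members the size of the log2 difference depends on the prior count of 2 and is no bound. ENSORLG00000014726 had 0, 0, 237, 3 and 698 reads in wild-type cisplatin fish, against 0, 0, 0, 4 and 0 in wild-type saline fish. These groups overlapped, and the wild-type cisplatin median was the fish with 3 reads. Its place as raised in wild-type fish thus rests on a median near the floor.

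No saline fish reached the lowest cisplatin fish for 10 of the 50 members in transgenic fish (0.122% of all genes), for 17 in wild-type fish (7.2% of all genes) and for 5 in both genotypes (0.0408% of all genes). The choice used these fish, so nothing is read from the counts. Among the members without overlap in both genotypes, chosen for naming after their values were seen, were ENSORLG00000000284, ENSORLG00000003970, ENSORLG00000017163 and ENSORLG00000019116, beside ENSORLG00000021053.

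ENSORLG00000003970 was an abundant member of this kind. It ranged from 59.2 to 328.1 CPM with a median of 201.7 in transgenic cisplatin fish, against 46.8, 32.8, 27.2, 15.2 and 49.7 CPM in transgenic saline fish. Wild-type fish had 187, 105, 68.1, 95.1 and 222 CPM under cisplatin, against 49.7, 54.3, 41.1, 30.9 and 44.8 CPM in saline. The lowest cisplatin values came close to the highest saline values, and the other cisplatin fish were well above them. In untreated fish it stood at 36.2, 41.9, 46.1, 39.9 and 46.9 CPM in transgenic and at 65.6, 46.4, 60.1, 57.7 and 51.8 CPM in wild-type fish. For this gene saline and untreated fish overlapped in range, and within each genotype every cisplatin fish stood above both. In wild-type fish the margin over untreated fish was narrow (68.1 against 65.6 CPM).

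ENSORLG00000017163 had a narrow spread. It ranged from 37.01 to 76.8 CPM with a median of 56.7 in transgenic cisplatin fish, against 26.0, 24.6, 31.4, 18.5 and 27.7 CPM in transgenic saline fish. Wild-type fish had 62.5, 49.98, 47.9, 37.9 and 63.3 CPM under cisplatin, against 23.9, 29.0, 21.6, 19.4 and 25.0 CPM in saline. By medians its untreated levels were the lowest of all conditions, between 14.4 and 21.3 CPM in transgenic fish and between 15.6 and 18.3 CPM in wild-type fish. The order of medians was thus highest under cisplatin, lower in both vehicles and lowest in untreated fish.

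ENSORLG00000000284 ordered the conditions otherwise. In transgenic fish it ranged from 2.93 to 9.36 CPM with a median of 6.97 under cisplatin, against 1.499, 1.61, 1.07, 0.112 and 1.29 CPM in saline. Wild-type fish had 6.60, 6.42, 4.03, 4.22 and 7.61 CPM under cisplatin, against 1.81, 1.20, 1.28, 0.987 and 1.28 CPM in saline. By medians untreated fish lay between these treatments, at 3.99, 4.10, 3.76, 5.09 and 4.89 CPM in transgenic and 2.87, 3.77, 2.76, 3.49 and 4.61 CPM in wild-type fish. In both genotypes every saline fish lay below every untreated fish.

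Whether the cisplatin level exceeded the other controls was described for all members. The cisplatin median was above the untreated median in both genotypes for 35 of 50 members (38% of all genes) and above the DMSO median in both for 44 (30.8% of all genes). It was the highest of the 5 conditions in both genotypes for 29 members (6.23% of all genes). The saline median was below the untreated median in both genotypes for 29 members (35.9% of all genes) and the lowest of the 5 conditions in both for 14 (2.08% of all genes). In the median over members, cisplatin exceeded untreated fish by 0.83 log2 units in both transgenic and wild-type fish, and saline minus untreated was -0.55 in transgenic and -0.40 in wild-type fish. Choosing genes that are low in saline fish favours such low saline levels, so these values describe the list and are no test.

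In 5 members the cisplatin median lay at least 1 log2 unit above the saline, DMSO and untreated medians in both genotypes. These members were named after their values were seen. All such genes (5 of 17144, 0.0292%) score at least 1, so the choice made every one a member. They were ENSORLG00000021053, ENSORLG00000021095, ENSORLG00000011814, ENSORLG00000003820 and ENSORLG00000009674. ENSORLG00000009674, an abundant one, ran from 372.9 to 6296 CPM with a median of 758.0 in transgenic cisplatin fish, against 206, 355, 342, 984 and 292 CPM in transgenic saline fish. Wild-type fish had 857, 407, 807, 467 and 792 CPM under cisplatin, against 236, 297, 247, 174 and 214 CPM in saline. The wild-type groups were apart, whereas saline fish 17 lay above 8 of the 10 transgenic cisplatin fish. Fish 17 and fish 21, the extremes of their groups, had the lowest TMM factors of all libraries.

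ENSORLG00000003820 followed the same fish. Its level ran from 65.4 to 1145 CPM with a median of 145.6 in transgenic cisplatin fish, against 33.7, 60.4, 65.5, 149 and 56.7 CPM in transgenic saline fish. Wild-type fish had 184, 70.3, 107, 91.5 and 173 CPM under cisplatin, against 32.8, 44.1, 43.6, 36.6 and 32.1 CPM in saline. Fish 21 and fish 17 were again the highest of their groups, and the wild-type groups did not overlap. Over the 25 saline and cisplatin fish, the levels of ENSORLG00000003820 and ENSORLG00000009674 less their group means had a Pearson correlation of 0.968, a value that these 2 libraries share in.

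In another 5 members, also named after their values were seen, the cisplatin median lay below the untreated median in both genotypes (37.4% of all genes did so): ENSORLG00000010353, ENSORLG00000009262, ENSORLG00000001499, ENSORLG00000005316 and ENSORLG00000009610. ENSORLG00000010353 stood between 0.887 and 7.06 CPM with a median of 2.01 in transgenic cisplatin fish, against 0.749, 0.564, 0.534, 0.225 and 0.780 CPM in transgenic saline fish. Untreated transgenic fish had 5.21, 5.96, 4.75, 16.4 and 6.24 CPM. Wild-type fish had 7.06, 1.42, 1.24, 3.88 and 5.77 CPM under cisplatin, against 1.80, 2.38, 0.933, 0.834 and 0.426 CPM in saline. Untreated wild-type fish, at 11.2, 21.7, 16.4, 8.00 and 8.10 CPM, lay above all wild-type fish of both other groups. For this gene the cisplatin medians were thus above those of saline fish and below those of fish in ordinary housing. Single fish overlapped. Wild-type cisplatin fish at 1.42 and 1.24 CPM lay below saline fish at 1.80 and 2.38 CPM. The transgenic cisplatin fish at 7.06 CPM lay above every untreated transgenic fish but that at 16.4 CPM.

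ENSORLG00000009262 had the widest range among cisplatin fish. It ran from 0.160 to 45.8 CPM with a median of 4.67 in transgenic cisplatin fish, against 0.629, 1.86, 0.103, 674 and 2.98 CPM in transgenic saline fish. In wild-type fish it stood at 4.12, 1.23, 0.138, 118 and 0.0673 CPM under cisplatin, against 12.8, 0.230, 2.23, 0.170 and 0.102 CPM in saline. The groups overlapped over nearly their whole range, and the highest transgenic value was that of saline fish 17. The median alone brought this gene into the list.

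**Figure D2:**
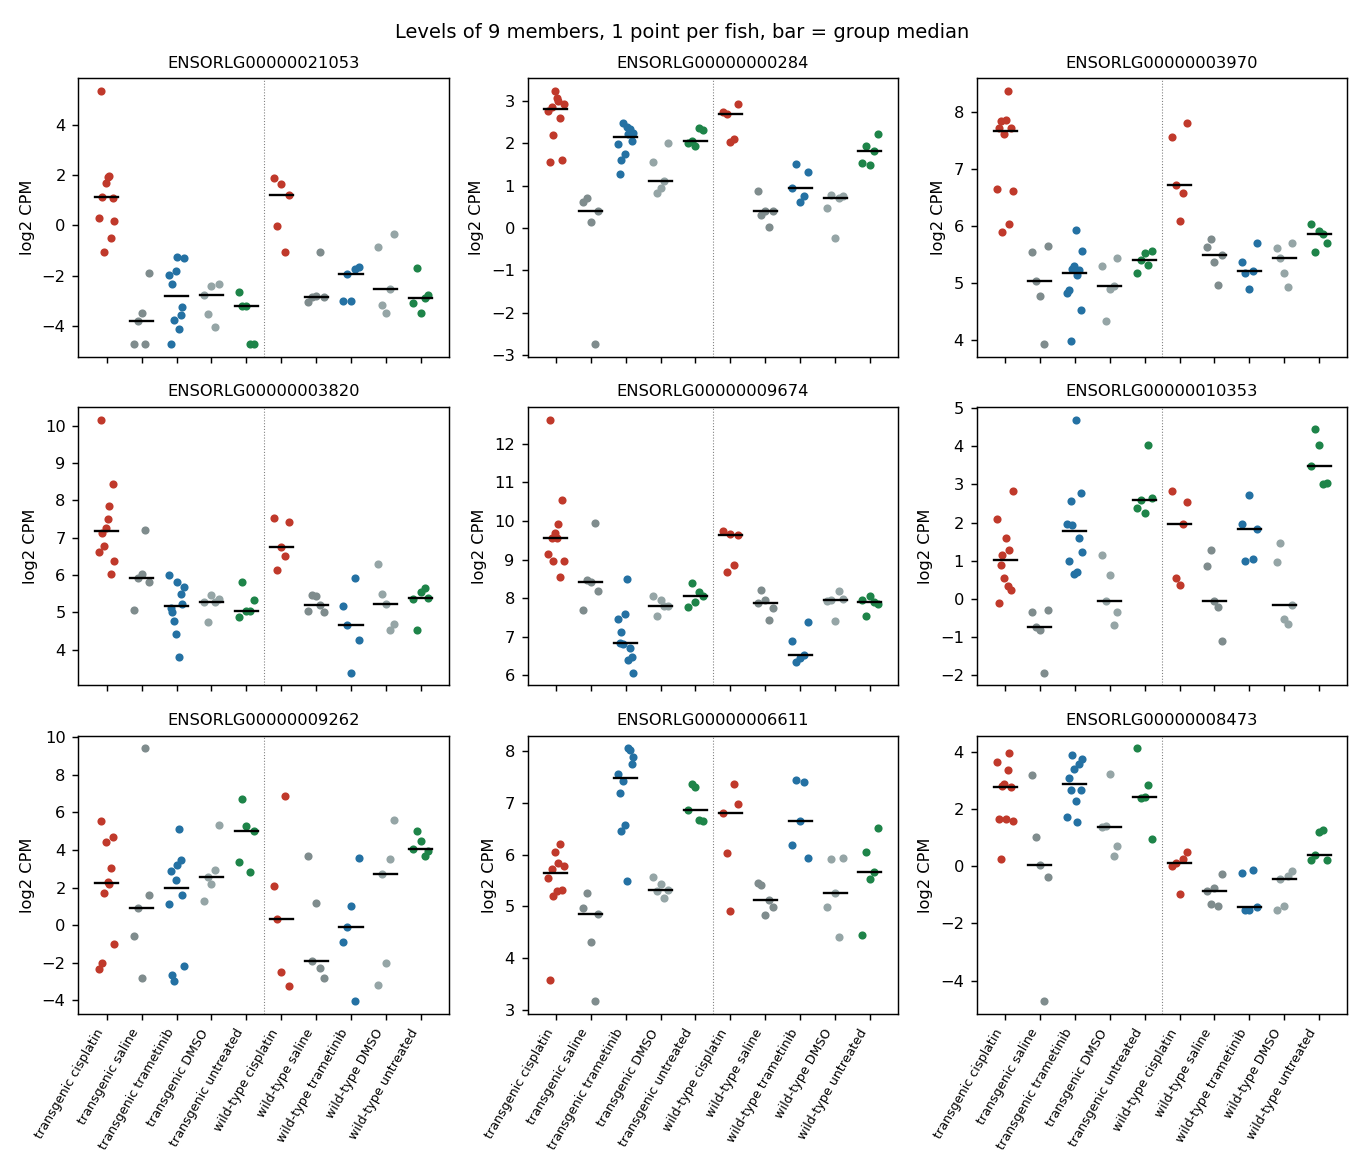
Log2 CPM of 9 members in each fish (points) with group medians (bars), transgenic groups left of the dotted line and wild-type groups right of it. By medians ENSORLG00000021053 is highest in cisplatin fish and ENSORLG00000010353 is higher in untreated than in cisplatin fish. ENSORLG00000009262 spreads widely within both cisplatin groups.

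**Figure D3:**
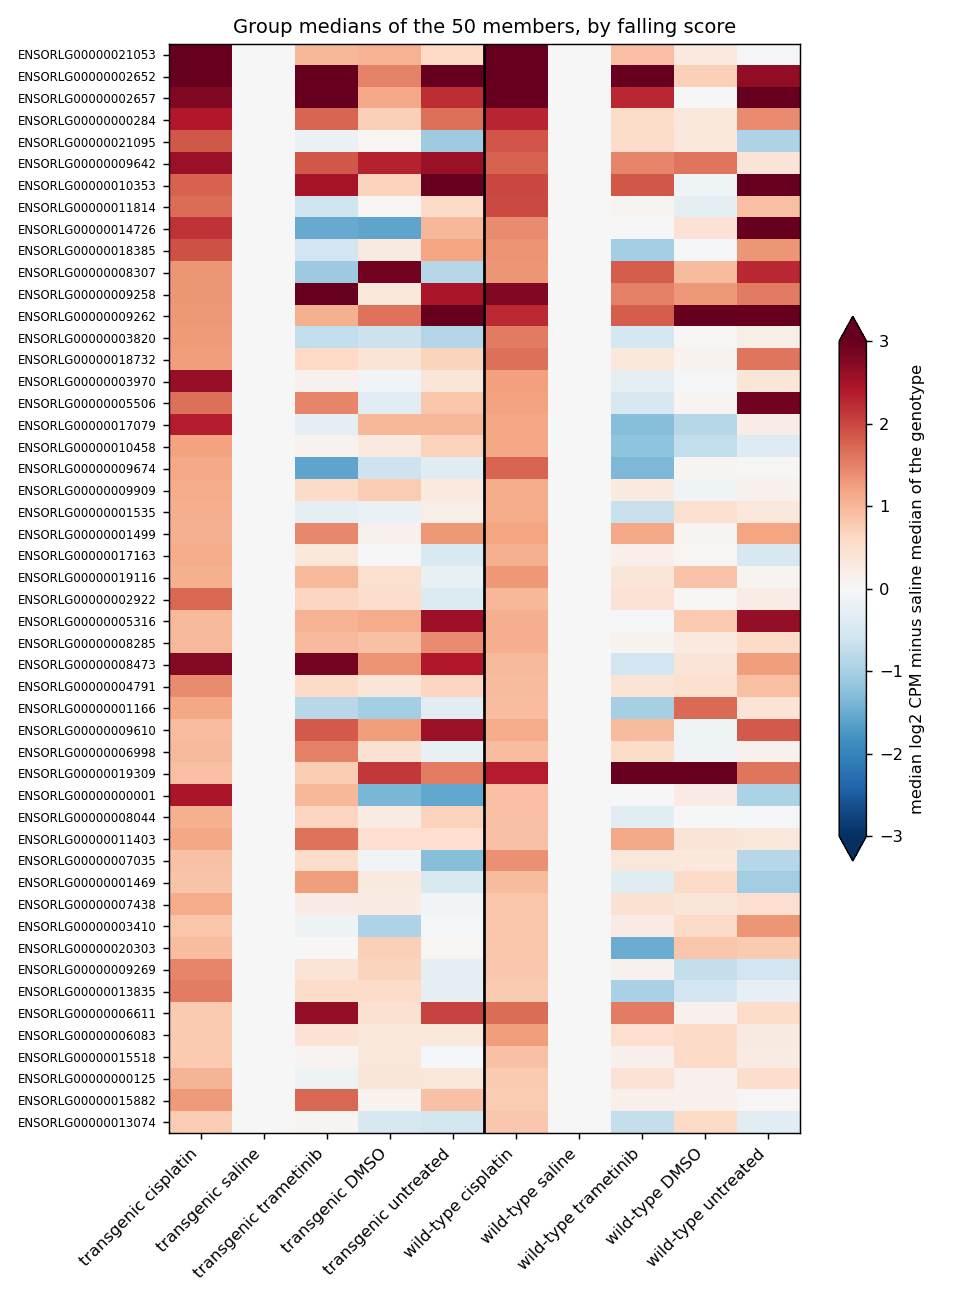
Group medians of log2 CPM of the 50 members (rows, by falling score) less the saline median of the same genotype, for 10 groups (columns), with the colour scale ending at 3 log2 units. The cisplatin columns are raised in every row by the choice of the genes, and 14 members have the saline median as the lowest of 5 conditions in both genotypes.

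Individual fish were compared by the median over the 50 members of log2 CPM less the saline median of the same genotype. This level ran from 0.818 to 1.69 with a median of 1.32 in transgenic cisplatin fish, against -0.198 to 0.0324 with a median of 0 in transgenic saline fish. In wild-type fish it ran from 0.913 to 1.62 with a median of 0.981 under cisplatin, against -0.200 to 0.0946 in saline. Among fish that entered the choice only through the mean CPM, trametinib fish had a median of 0.515 (0.0120 to 1.47) and DMSO fish one of 0.216 (0.123 to 0.848) among transgenic fish. In wild-type fish the medians were 0.268 (-0.241 to 0.372) under trametinib and 0.442 (-0.132 to 0.618) in DMSO. Untreated fish had medians of 0.332 (0.288 to 0.671) in transgenic and 0.497 (0.0770 to 0.548) in wild-type fish. In wild-type fish every cisplatin fish stood above every fish of the other conditions. The members were chosen as high in these cisplatin fish and low in the saline fish. The choice thus favoured a high level in cisplatin fish, and their position describes the list and is no test. In transgenic fish, trametinib fish 58 (0.896), 63 (1.47) and 67 (0.838) and DMSO fish 57 (0.848) lay within the cisplatin range. The TMM factor of fish 63 was 0.775, and the part of library composition in its level was not tested.

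**Figure D4:**
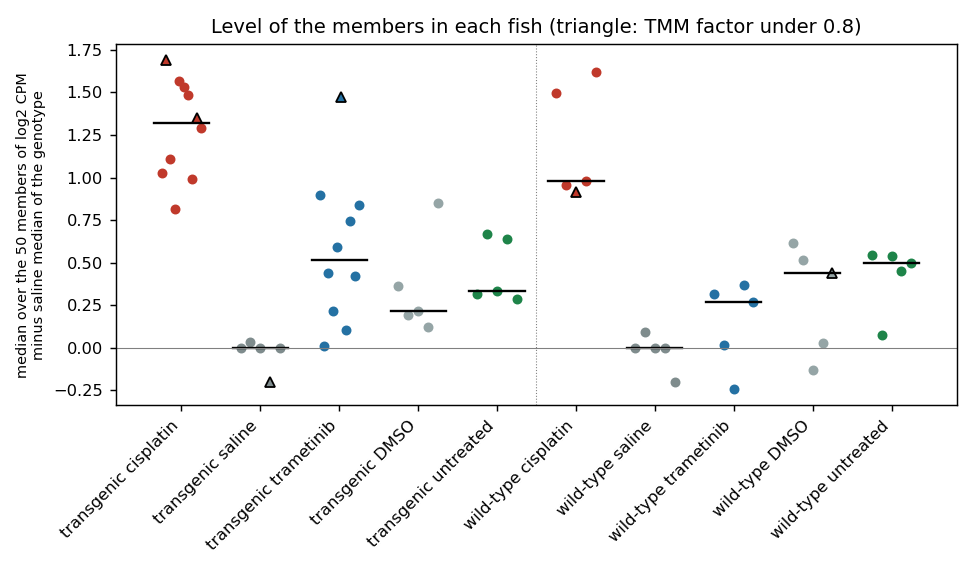
Median over the 50 members of log2 CPM minus the saline median of the genotype (y axis), 1 point per fish, bars at group medians and triangles for TMM factors under 0.8. Cisplatin fish lie between 0.818 and 1.69, and transgenic trametinib fish 63 reaches 1.47.

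Trametinib was then compared with DMSO, in fish whose levels entered no score. A gene was called at an adjusted p under 0.05 in edgeR's quasi-likelihood test, adjusted over all genes. In transgenic fish 3 of 50 members were called, all higher (1.41% of all genes were called in either direction, 0.962% as higher), and 15 had an unadjusted p under 0.05 (15.1% of all genes). Of those 15, 13 were among the 47 members that pass the mean CPM minimum over the saline and cisplatin fish alone, as were all 3 called members. In wild-type fish 1 member was higher and 3 were lower (5.23% of all genes were called, 3.62% as lower), and 12 had an unadjusted p under 0.05 (23.4% of all genes). Of those 12, 11 were among the 47 members. The median log2 fold change of the members was 0.24 in transgenic fish (-0.02 over all genes, and 0.21 over the 47 members) and -0.12 in wild-type fish (0.01 over all genes). The wild-type median was 0.01 once the low-factor libraries were omitted, so its sign depends on them.

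ENSORLG00000006611 was higher under trametinib in both genotypes. It ran from 44.8 to 266.5 CPM with a median of 179.7 in transgenic trametinib fish, against 47.4, 39.2, 43.4, 35.7 and 39.9 CPM in transgenic DMSO fish (log2 fold change 2.06, SE 0.37, edgeR adjusted p = 0.00374). Wild-type fish had 72.9, 174, 101, 171 and 61.3 CPM under trametinib, against 31.7, 60.6, 37.99, 21.1 and 61.1 CPM in DMSO (log2 fold change 1.45, SE 0.40, edgeR adjusted p = 0.0351). The transgenic groups overlapped only through fish 63, at 44.8 CPM. The wild-type groups were barely apart, and the wild-type call was lost when fish 43, 46, 47, 49, 50 or 51 was left out (adjusted p up to 0.109). Untreated transgenic fish, at 101 to 166 CPM, stood well above the DMSO fish of that genotype too.

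ENSORLG00000015882 ran from 2.25 to 6.07 CPM with a median of 4.06 in transgenic trametinib fish, against 1.06, 1.08, 1.74, 1.304 and 1.67 CPM in transgenic DMSO fish (log2 fold change 1.55, SE 0.23, edgeR adjusted p = 0.00074). All trametinib fish lay above all DMSO fish. In wild-type fish it had 1.98, 1.19, 1.55, 1.49 and 1.20 CPM under trametinib, against 1.73, 1.32, 1.26, 1.44 and 1.65 CPM in DMSO, and these groups overlapped. ENSORLG00000020303 had 14.1, 13.3, 24.4, 16.1 and 11.7 CPM in wild-type trametinib fish, against 71.5, 29.0, 146, 58.1 and 70.9 CPM in wild-type DMSO fish (log2 fold change -2.23, SE 0.39, edgeR adjusted p = 0.00328). Here all trametinib fish lay below all DMSO fish. ENSORLG00000013074 had 5.54, 4.92, 7.10, 6.10 and 4.33 CPM in wild-type trametinib fish, against 14.0, 8.48, 8.02, 17.5 and 17.7 CPM in wild-type DMSO fish (log2 fold change -1.22, SE 0.28, edgeR adjusted p = 0.0167), a call that was lost without fish 46, 47 or 49. The remaining lower call was ENSORLG00000009674 (log2 fold change -1.14, SE 0.33, edgeR adjusted p = 0.0434). It was lost without fish 43, 44, 46, 47, 48, 49, 50, 51, 53, 54, 55, 56, 57, 59, 60 or 61. In transgenic fish the remaining higher call was ENSORLG00000001499 (log2 fold change 1.04, SE 0.25, edgeR adjusted p = 0.0335). It was lost without fish 53, 54, 55, 57, 65 or 67.

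The difference of the trametinib response between genotypes was tested directly, and 0 of 50 members were called by edgeR (0.0748% of all genes), with 7 at an unadjusted p under 0.05 (19.9% of all genes). DESeq2 called 3 and limma-voom 0, with no share of all genes computed for either. The median of this difference over members was 0.44 log2 units, against -0.03 over all genes, and 0.22 once the low-factor libraries were omitted. A response called in 1 genotype is therefore not shown to differ from the other. For ENSORLG00000015882, called in transgenic fish alone, the difference was 1.55 (SE 0.34, edgeR adjusted p = 0.0594). For ENSORLG00000013074 it was 1.43 (edgeR adjusted p = 0.0819) and for ENSORLG00000020303 1.90 (edgeR adjusted p = 0.0901). For ENSORLG00000009674 it was 0.47 (edgeR adjusted p = 0.517) and for ENSORLG00000001499 0.18 (edgeR adjusted p = 0.790).

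Genotypes were compared under trametinib, in DMSO and in untreated fish. Under trametinib 7 of 50 members were higher in transgenic fish and none was lower (4.3% of all genes were called in either direction, 2.95% as higher and 1.35% as lower), with 13 at an unadjusted p under 0.05 (21.1% of all genes). Of those 13, 12 were among the 47 members that pass the mean CPM minimum over the saline and cisplatin fish alone, as were all 7 called members. In DMSO 1 member was higher (0.62% of all genes were called in either direction, 0.139% as higher), with 9 at an unadjusted p under 0.05 (12.7% of all genes). Among untreated fish 3 of the 49 members tested were higher and 2 were lower (7.92% of all genes were called, 3.11% as lower), with 18 at an unadjusted p under 0.05 (26.1% of all genes). No member was called for the untreated genotypes in the single fit of all groups, and DESeq2 called 12. Shares of all genes were not computed for these alternatives.

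ENSORLG00000008473 was higher in transgenic fish in all 3 comparisons. Under trametinib it ran from 2.87 to 15.0 CPM with a median of 7.45 in transgenic fish, against 0.808, 0.308, 0.311, 0.865 and 0.331 CPM in wild-type fish (log2 ratio 3.99, SE 0.55, edgeR adjusted p = 0.000213). In DMSO it stood at 2.55, 2.60, 9.31, 1.24 and 1.58 CPM in transgenic fish, against 0.310, 0.690, 0.348, 0.756 and 0.853 CPM in wild-type fish (log2 ratio 2.58, SE 0.55, edgeR adjusted p = 0.0276). Untreated transgenic fish had 17.3, 5.23, 5.31, 7.08 and 1.92 CPM, against 1.14, 1.28, 2.24, 2.36 and 1.13 CPM in untreated wild-type fish (log2 ratio 2.18, SE 0.53, edgeR adjusted p = 0.0368). Under trametinib and in DMSO the genotypes did not overlap, while untreated transgenic fish 77 lay within the wild-type range. The DMSO call was lost without fish 43, 45, 46, 47, 53 or 55, with limma-voom, in a single fit of all groups and once the low-factor libraries were omitted, and the log2 fold change was 1.75 without fish 55. The untreated call was lost with limma-voom, in the single fit and without fish 68, 69, 70, 71, 72, 74 or 76.

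ENSORLG00000005506 ran from 13.2 to 94.0 CPM with a median of 44.9 in transgenic trametinib fish, against 3.36, 2.29, 5.82, 1.22 and 6.48 CPM in wild-type trametinib fish (log2 ratio 3.56, SE 0.63, edgeR adjusted p = 0.00207). The genotypes did not overlap. In untreated fish its levels did overlap, with 94.7, 28.9, 28.4, 55.0 and 17.4 CPM in transgenic and 35.5, 44.9, 35.4, 37.7 and 31.2 CPM in wild-type fish. ENSORLG00000008285 had 5.63, 3.85, 3.61, 4.29 and 3.90 CPM in untreated transgenic fish, against 1.81, 1.53, 1.57, 1.44 and 1.58 CPM in untreated wild-type fish (log2 ratio 1.41, SE 0.16, edgeR adjusted p = 0.00114), with every transgenic fish above every wild-type fish. The members lower in untreated transgenic fish were ENSORLG00000018385 (log2 fold change -0.60, SE 0.14, edgeR adjusted p = 0.0282) and ENSORLG00000003970 (log2 fold change -0.43, SE 0.10, edgeR adjusted p = 0.0214). Both calls were lost in the single fit (adjusted p = 1), that of ENSORLG00000018385 also without fish 68, 71, 72 or 74 and that of ENSORLG00000003970 without fish 71 or 74. The call of ENSORLG00000008285 was lost in the single fit as well (adjusted p = 0.163).

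DMSO was compared with no treatment, a contrast that holds the move to the dish together with the vehicle. In transgenic fish 4 of 49 members tested were higher and 5 lower in DMSO (26.1% of all genes), with 15 at an unadjusted p under 0.05 (35.9% of all genes). In wild-type fish 5 were higher and 8 lower (38.4% of all genes), with 18 at an unadjusted p under 0.05 (47.1% of all genes). Both shares of called members were below those of all genes, but the members' fold changes were not smaller. Their median absolute log2 fold change was 0.568 in transgenic fish (0.311 over all genes) and 0.528 in wild-type fish (0.422 over all genes). The part of the spread between fish in these shares was not tested. Among the 47 members that pass the mean CPM minimum over the saline and cisplatin fish alone, 46 were tested. Of these, 4 were higher and 4 lower in transgenic fish, and 5 were higher and 7 lower in wild-type fish. ENSORLG00000017163 and ENSORLG00000007035 were higher in both genotypes, and ENSORLG00000000284, ENSORLG00000010353 and ENSORLG00000001499 were lower in both. The transgenic call of ENSORLG00000000284 was lost without fish 55 (adjusted p = 0.0516) and in the single fit (adjusted p = 0.096), and that of ENSORLG00000007035 in the single fit.

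ENSORLG00000010353 fell in DMSO fish of both genotypes. It had 2.19, 0.932, 1.52, 0.584 and 0.750 CPM in transgenic DMSO fish, against 5.21, 5.96, 4.75, 16.4 and 6.24 CPM in untreated transgenic fish (log2 fold change -2.71, SE 0.49, edgeR adjusted p = 0.000355). In wild-type fish it had 1.94, 2.72, 0.657, 0.600 and 0.853 CPM in DMSO, against 11.2, 21.7, 16.4, 8.00 and 8.10 CPM untreated (log2 fold change -3.28, SE 0.50, edgeR adjusted p = 4.31e-05). The groups did not overlap in either genotype, as with saline. ENSORLG00000002652 was also lower in transgenic DMSO fish (log2 fold change -2.70, SE 0.87, edgeR adjusted p = 0.0268), a call lost without fish 53, 55, 56 or 77, in the single fit, with limma-voom and under the stricter filter, which removed the gene.

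ENSORLG00000007035 (log2 fold change 1.26, SE 0.32, edgeR adjusted p = 0.00614) and ENSORLG00000009269 (1.16, SE 0.33, edgeR adjusted p = 0.0120) were higher in transgenic DMSO fish, and both calls were lost in the single fit (adjusted p = 0.0824 and 0.106). In wild-type fish ENSORLG00000021095 had 1.92, 0.889, 0.322, 0.689 and 4.81 CPM in DMSO, against 0.674, 0.388, 0.345, 0.224 and 0.200 CPM untreated (log2 fold change 2.19, SE 0.56, edgeR adjusted p = 0.00406). Fish 47 was the highest, and without it the log2 fold change was 1.33. The call was lost in the single fit (adjusted p = 0.0569), and the stricter filter removed the gene. ENSORLG00000001469 was higher in wild-type DMSO fish by 1.45 (SE 0.51, edgeR adjusted p = 0.0298), lost without fish 47 (log2 fold change 0.83), 69, 70 or 71 and with limma-voom. ENSORLG00000014726 was lower by a log2 fold change of -5.42 (SE 1.99, edgeR adjusted p = 0.0398), with 0.0183, 0, 0.0129, 0.222 and 0 CPM in DMSO against 1.16, 0, 8.70, 0.481 and 0.0545 CPM in untreated fish, so the groups overlapped. Its fold change was -3.14 without fish 70, and the call was lost without fish 43, 44, 45, 47 or 70, with limma-voom and without the low-factor libraries.

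**Figure D5:**
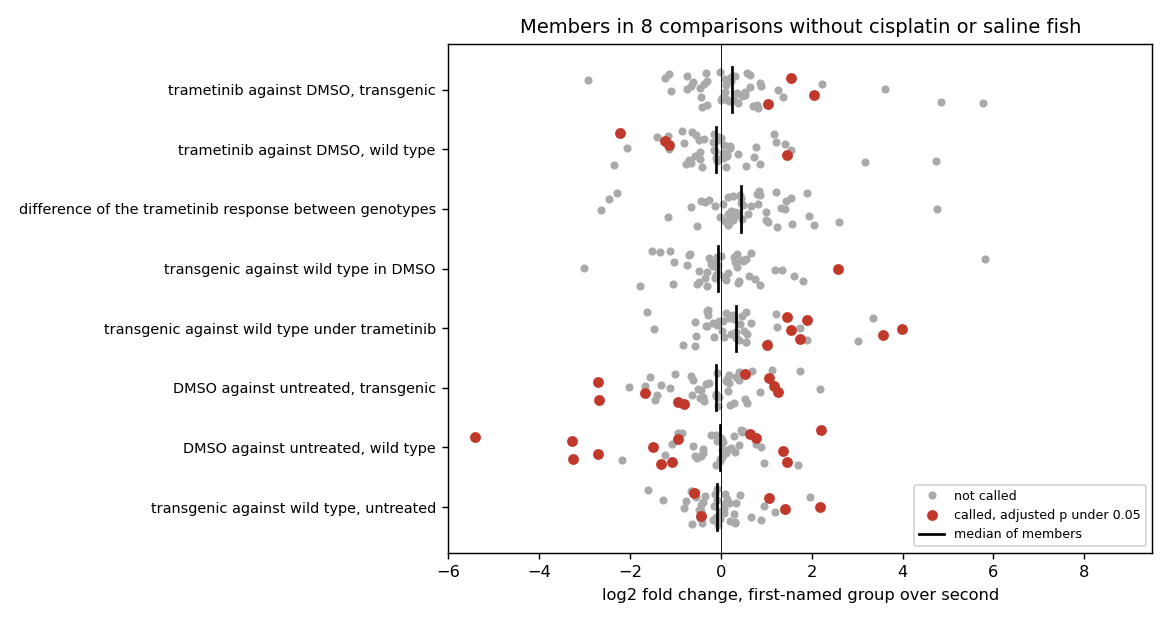
Log2 fold change (x axis) of each member tested in 8 comparisons that hold no cisplatin or saline fish (rows), called members in red and black bars at the members' medians. Members spread on both sides of 0 in every row, with 7 called as higher and none as lower in transgenic fish under trametinib.

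Over the 8 comparisons 24 members were called at least once and 26 in none, while 54.1% of all genes with a mean CPM of at least 1 were called at least once. The members did not move as 1 block between fish of the same group. Over the 35 DMSO, trametinib and untreated fish, Pearson correlations of log2 CPM less the group mean had a median of 0.0908 over the 1225 pairs of members and of -0.004 over pairs of all genes, and exceeded 0.5 in 11.6% of member pairs and 9.3% of all pairs. ENSORLG00000007035 and ENSORLG00000013835 varied most closely (r = 0.908), followed by ENSORLG00000008307 and ENSORLG00000005316 (r = 0.885). Grouping the members by these correlations put 13 of 50 into a single cluster, which held ENSORLG00000007035, ENSORLG00000018385, ENSORLG00000003820 and ENSORLG00000009269, and each other cluster held at most 3. Among members called between genotypes under trametinib, ENSORLG00000005506, ENSORLG00000015882 and ENSORLG00000013074 shared a cluster, and ENSORLG00000008285 and ENSORLG00000008473 shared another. In the same 35 fish the median SD within groups was 0.773 log2 units for the members and 0.357 for all genes. Choosing the largest differences of medians from small groups favours genes of wide spread, and its part in this value was not tested.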

How the data were processed

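The authors deposited raw read counts per gene for 60 whole-fish libraries, and the submitters' processing notes name featureCounts and TopHat2 (version 2.2.4). Build, annotation, strand setting and handling of multi-mapping reads were not given in the sources used here. Counts of overlapping or near-identical genes are therefore uncertain.

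The analysis used edgeR 4.0.16 under R 4.3.3. Levels are CPM scaled with TMM factors over all 60 libraries, and log2 CPM used a prior count of 2. The mean CPM of at least 1 was taken on the scaled values over all 60 libraries. Members and lists were chosen with earlier results of these data known. The lists of pathway genes could not be used, as 0 identifiers matched a symbol.

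Comparisons without cisplatin or saline fish used the quasi-likelihood F test after filterByExpr, with Benjamini-Hochberg adjustment over all genes and a threshold of 0.05. The same DMSO, trametinib or untreated fish serve in several of these comparisons, which are thus not independent of each other. There were 3 fits: DMSO and trametinib fish, DMSO and untreated fish, and untreated fish, each with group means. SEs were taken from the F statistic. The scripts were tested on simulated data. For trametinib in transgenic fish, with 200 genes changed by 2 log2 units, edgeR recovered 180 with 6 false calls. In the same data limma-voom recovered 176 with 6 false calls, and DESeq2 recovered 191 with 30. Alternatives used DESeq2 1.42.0, limma-voom (limma 3.58.1), other scaling and filters, a single fit of all groups, and omission of libraries or single fish. P-values set a difference between groups against the spread between fish, which are taken as independent. Members were named by score, threshold, level, range and the largest called fold changes (at most 2 per direction and comparison), and those named otherwise are said to be.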

Additional observations from a re-analysis of the deposited data

Results flagged for a closer look

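For 31 of 310 sets of fish and member or border gene, 1 fish lay far from the others of its group. The cut-off gives about 1 in 20 for independent, normally spread values. Some sets are tied at 0 reads and fish 17 and 21 recur over genes, so no excess is read from the count. Values are log2 CPM, with the range of the other fish of the group in parentheses. Transgenic saline fish 17 had the median level of the members over the saline median at -0.198 (0 to 0.0324), ENSORLG00000019560 at 5.12 (6.9 to 7.45), ENSORLG00000009269 at 7.98 (4.52 to 5.2), ENSORLG00000021095 at 3.95 (-1.18 to -0.211), ENSORLG00000008285 at -4.73 (0.126 to 2.05), ENSORLG00000002657 at -2.74 (-4.73 to -4.73), ENSORLG00000001499 at -0.737 (1.17 to 1.79) and ENSORLG00000000284 at -2.74 (0.144 to 0.718). Transgenic cisplatin fish 21 had ENSORLG00000021053 at 5.35 (-1.07 to 1.97), ENSORLG00000006611 at 3.56 (5.2 to 6.21), ENSORLG00000009269 at 8.92 (5.69 to 7.21), ENSORLG00000021095 at 5.79 (0.0419 to 2.15), ENSORLG00000008285 at -1.35 (1 to 2.41), ENSORLG00000009610 at -1.35 (1.77 to 3.76) and ENSORLG00000009674 at 12.6 (8.54 to 10.6). Wild-type saline fish 36 had ENSORLG00000021053 at -1.06 (-3.04 to -2.82) and ENSORLG00000014726 at -3.24 (-4.73 to -4.73). Wild-type saline fish 34 had ENSORLG00000015882 at 0.12 (0.413 to 0.486) and ENSORLG00000007035 at 5.46 (4.24 to 4.34). Wild-type saline fish 37 had ENSORLG00000009269 at 4.43 (5.64 to 6.07). Wild-type saline fish 33 had ENSORLG00000001469 at 7.77 (9.22 to 9.8). Wild-type DMSO fish 43 had ENSORLG00000013785 at 0.601 (2.53 to 3.02). Wild-type DMSO fish 46 had ENSORLG00000014726 at -1.94 (-4.73 to -4.16). Wild-type trametinib fish 52 had ENSORLG00000014726 at -2.36 (-4.73 to -4.27). Transgenic DMSO fish 57 had ENSORLG00000011814 at 2.36 (1.35 to 1.64). Transgenic DMSO fish 54 had ENSORLG00000003820 at 4.75 (5.28 to 5.48). Transgenic trametinib fish 63 had ENSORLG00000010353 at 4.69 (0.644 to 2.79). Transgenic trametinib fish 59 had ENSORLG00000001469 at 8.53 (10 to 10.9). Wild-type untreated fish 69 had the median level of the members over the saline median at 0.077 (0.451 to 0.548) and ENSORLG00000003820 at 4.54 (5.36 to 5.65). Transgenic untreated fish 76 had ENSORLG00000010353 at 4.04 (2.26 to 2.65).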

How the results depend on the processing

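Of the 50 members, 47 stayed among the 50 highest scores with RLE scaling, 37 with library totals alone and 48 with a prior count of 0.5 or 5. The number was 31 with group means in place of medians, 33 with a mean CPM of 5 or more and 6 without the libraries of TMM factor under 0.8, and 48 with the mean CPM from library totals, a setting chosen after seeing the data. It lay between 38 and 46 when 1 saline or cisplatin fish was left out, and 19 members were in every one of these 25 lists. Trametinib, DMSO and untreated fish were not left out in these lists, so their part in the mean CPM was not covered. Members without overlap in transgenic fish numbered 17 without the low-factor libraries and 10 to 13 without 1 fish. In wild-type fish they numbered 8 with library totals and 17 to 22 without 1 fish. Shares of all genes were not computed for these settings, and the choice used these fish, so nothing is read from the numbers.

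The shares of all genes called were not computed for the alternatives. The numbers below are therefore set only against the main numbers of called members. With DESeq2 the called members were 8 for trametinib in transgenic fish, 7 in wild-type fish, 3 for the difference of responses, 4 for genotype in DMSO and 12 for genotype in untreated fish. In the single fit they were 6 for trametinib in transgenic fish, 0 for genotype in DMSO, 4 for DMSO against untreated in transgenic fish, 8 in wild-type fish and 0 for genotype in untreated fish. Limma-voom gave 0 for genotype in DMSO. Without the low-factor libraries the numbers were 5 for trametinib in transgenic fish and 0 for genotype in DMSO. Leaving out 1 fish gave 2 to 5 for trametinib in transgenic fish (5 without fish 63), 1 to 6 in wild-type fish (1 without fish 46, 47 or 49, 2 without 50 or 51) and 0 to 3 for the difference of responses (1 without fish 43, 3 without 44, 2 without 58). It gave 0 to 3 for genotype in DMSO, 6 to 8 under trametinib and 3 to 6 untreated (3 without fish 71), and for DMSO against untreated 8 to 11 in transgenic and 7 to 15 in wild-type fish (7 without fish 70). The causes were not tested. For the named members, no called value reversed its direction in the alternatives other than leaving out 1 fish, where the gene was tested. Called members that were not named, and the runs with 1 fish left out, were not part of this check. Of the alternative values, 521 kept their side of the threshold or size, 48 lost a call or count, 15 gained and 5 moved. The untreated fit held no low-factor library, so that alternative gave no value there. Members with few reads in saline limit what depth can show.

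No paired analysis was possible because each fish number occurs once and the groups share none.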
